A study of Bos taurus with 15 samples.

Results

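PLCD1 (ENSBTAG00000037726.2) and PLD2 (ENSBTAG00000013392.6) are 2 phospholipase genes out of 21665 genes in a table of RNA-seq counts from primary bovine fetal fibroblasts (BFFs). The rows were chosen because the list of genes that the study found raised by wild-type (WT) ARGFX pairs both symbols with identifiers, so their rise with WT ARGFX is what selected them and is only described here. The cells were grown from the torso skin of 1 fetus of 6 months and used at passage 4. They were electroporated with a plasmid in which a CMV promoter, active in most cell types, drove a bovine coding sequence. This was WT ARGFX (4 samples), LEUTX (4 samples) or a mutant allele of ARGFX (3 samples), each with a C-terminal FLAG tag. Control cells (4 samples) received the empty pSF-CMV-Puro-COOH plasmid. The mutant allele carries a deletion that shifts the reading frame and removes the homeodomain, the part of the protein that binds DNA. All cells were selected with puromycin at 4 μg/mL, and RNA was taken after 72 h. Every sample therefore came from the cells of 1 fetus, and p-values measure the spread between transfections of those cells. The Control plasmid carried no insert, so an effect of any insert and an effect of the particular protein cannot be told apart in the comparisons with Control.

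Phospholipases cut membrane phospholipids and in doing so make signalling molecules. PLCD1 encodes phospholipase C delta 1, a calcium-dependent enzyme that splits phosphatidylinositol bisphosphate into diacylglycerol, which recruits and activates protein kinase C, and inositol trisphosphate, which releases calcium from the endoplasmic reticulum. PLD2 encodes phospholipase D2, which cuts phosphatidylcholine into choline and phosphatidic acid, a lipid messenger that acts on the actin cytoskeleton and on vesicle traffic. Phospholipase D needs phosphatidylinositol bisphosphate as a cofactor, so the lipid that PLCD1 consumes is also one that PLD2 depends on. ARGFX and LEUTX are ETCHbox genes, homeobox genes of placental mammals that encode transcription factors of the preimplantation embryo and are silent in fibroblasts.

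The total expected count per sample, the sum of kallisto's estimated counts over genes, ranged from 25947911 to 41554242. ARGFX and LEUTX RNA was found in the samples labelled with each gene. Counts per gene do not tell the WT allele of ARGFX from the mutant, so they do not check which of the alleles a sample received. The authors state that they aligned and viewed reads of the WT and mutant ARGFX samples to check the version expressed. ARGFX lay between 3039.5 and 4506 CPM (counts scaled to library size with TMM factors) in the WT ARGFX samples and between 3408 and 6606 CPM in the mutant samples, with at most 5.67 expected counts in any Control or LEUTX sample. LEUTX lay between 1314 and 1781 CPM in its own samples, with at most 11.3 expected counts in any other. Of 12 fibroblast markers listed, 6 could be located (COL1A1, COL1A2, COL3A1, FN1, POSTN and FBN1), all through the same list of raised genes, and none of the 6 was at 0 in any sample. None of 12 markers of keratinocytes, endothelium, macrophages and smooth muscle could be located, so other cell types were not analysed here. Samples that share a column name could not be given a replicate number, and these 2 WT ARGFX samples are called a and b. Sample b stood apart from the other WT ARGFX samples, with a score of 0.56 on a surrogate variable (an axis of variation among the samples that the conditions do not explain) against -0.19 to -0.16, and the fold changes of both phospholipases and of the genes around them were also computed without it. A further mutant sample, which the authors removed because it lay among the WT ARGFX samples on their principal component plot, was not analysed here.

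PLCD1 was higher with every construct than with the empty plasmid. Its level was 31.9, 33.7, 36.2 and 32.0 CPM in Control replicates 1 to 4. It was 52.8, 52.8 and 55.8 CPM in mutant ARGFX replicates 1 to 3. With WT ARGFX it was 55.2 CPM in replicate 1, 62.2 in replicate 2, 56.2 in sample a and 54.9 in sample b. No sample with a construct lay below 52.8 CPM, and no Control sample above 36.2. Such a separation from Control, every sample above every Control sample, was seen in 11.6% of the 14264 genes tested for mutant ARGFX, 12.9% for WT ARGFX and 20.5% for LEUTX. With LEUTX the level was 61.4, 57.1, 56.0 and 55.7 CPM in replicates 1 to 4, and the ranges of all 3 constructs overlapped. The condition means were 33.4 ± 2.02 CPM for Control, 53.8 ± 1.72 for mutant ARGFX, 57.1 ± 3.40 for WT ARGFX and 57.5 ± 2.63 for LEUTX (SD, n = 4, 3, 4 and 4). Its expected count was between 840 and 2470 in each sample, where counting error alone gives an average spread of 2.32% to 3.29% of the mean within a condition.

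PLD2 was also higher with every construct than with the empty plasmid, with a wider spread among the construct samples. Its level was 17.1, 16.0, 16.6 and 15.2 CPM in Control replicates 1 to 4. It was 25.2, 23.5 and 28.5 CPM in mutant ARGFX replicates 1 to 3. With WT ARGFX it was 33.5 CPM in replicate 1, 30.04 in replicate 2, 27.9 in sample a and 23.8 in sample b. Every construct sample lay above every Control sample, but the 3 constructs overlapped one another over most of their range. Such a separation was seen in 11.6% of genes tested for mutant ARGFX, 12.9% for WT ARGFX and 20.5% for LEUTX. The share separated with all 3 constructs at once was not computed, and the part from WT ARGFX belongs to the contrast that picked both genes. With LEUTX the level was 31.4, 28.5, 24.0 and 21.3 CPM in replicates 1 to 4, and the lowest of these was the nearest of any construct sample to the Control range. The condition means were 16.2 ± 0.81 CPM for Control, 25.7 ± 2.55 for mutant ARGFX, 28.8 ± 4.08 for WT ARGFX and 26.3 ± 4.49 for LEUTX (SD, n = 4, 3, 4 and 4). The coefficient of variation was 5.00% in Control, where counting error averaged 4.72%, and 17.1% with LEUTX, where it averaged 3.61%. For PLCD1 it stayed between 3.20% and 6.04% in all 4 conditions.

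**Figure D1:**
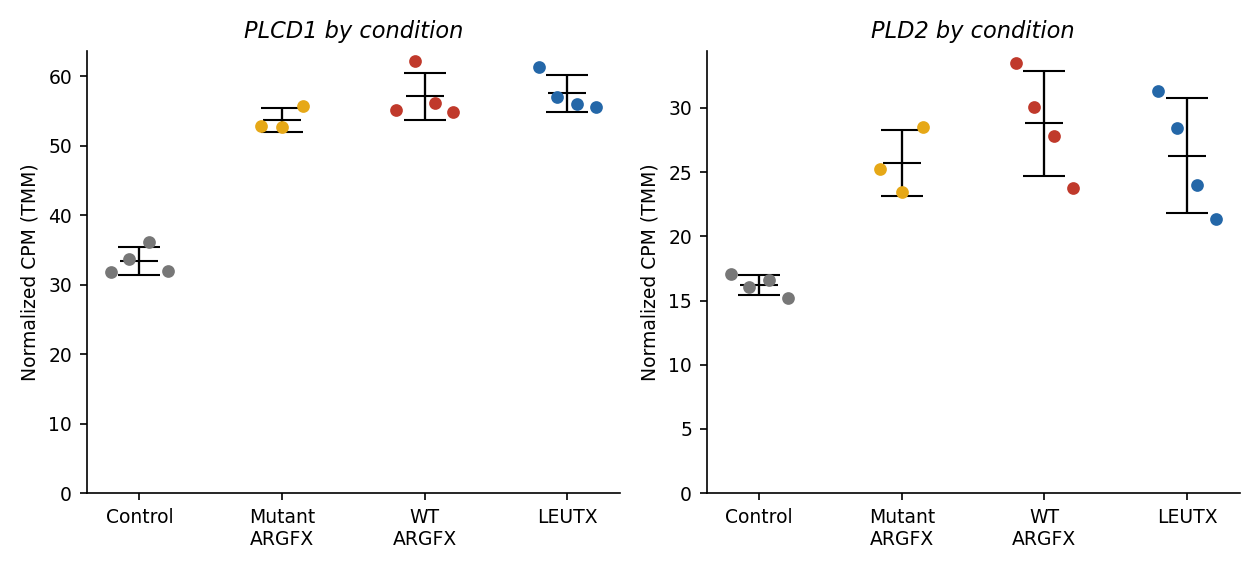
Normalized CPM of PLCD1 (left) and PLD2 (right) in each sample (points) by condition, with the mean and SD (black bars, n = 4 Control, 3 mutant ARGFX, 4 WT ARGFX, 4 LEUTX). Control samples reach at most 36.2 CPM for PLCD1 and 17.1 CPM for PLD2, and all construct samples lie above them.

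The 30 values of both genes were whole numbers (within 1e-06). Pseudoalignment gives a fractional count where a read could come from more than 1 gene, and 87.3% of the 14264 genes tested were likewise whole in all samples. In RefSeq's cattle annotation (ARS-UCD2.0, used for names only) no other gene overlapped either of them, and their nearest named neighbours were VILL and DLEC1 for PLCD1 and MINK1 and C19H17orf114 for PLD2.

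With WT ARGFX, the contrast that selected both genes, the log2 fold change over Control was 0.77 (standard error 0.07) for PLCD1, a fold of 1.71. It was 0.83 (standard error 0.12) for PLD2, a fold of 1.78. Without WT ARGFX sample b these became 0.78 and 0.90 on the log2 scale. For scale, 15.8% of the 14264 genes tested were called higher with WT ARGFX at an adjusted p under 0.05 and 6.15% also with a fold over 1.5. No test is given for this contrast, since the genes were picked from it.

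Both phospholipases were higher with mutant ARGFX than with the empty plasmid. The 4 Control samples here also served in the contrast that picked the genes, so the p-values below can be too small. PLCD1 was 1.61-fold higher than in Control (95% interval 1.43 to 1.80; log2 fold change 0.69, edgeR quasi-likelihood adjusted p = 5.38e-05). PLD2 was 1.59-fold higher (1.31 to 1.93; log2 fold change 0.67, edgeR adjusted p = 0.00458). Both thus passed the fold of 1.5 that the study required, as did 1.26% of the genes tested in this direction, while 4.26% were called higher without a fold threshold. By size of the fold change PLCD1 ranked 481 and PLD2 ranked 515 of the 14264 genes. The PLD2 estimate rested in part on mutant replicate 3: without it the log2 fold change was 0.58, just under the fold of 1.5 (edgeR quasi-likelihood adjusted p = 0.0361). Without WT ARGFX sample b, which enters this comparison through the scaling and the shared estimate of spread, the values were 0.69 for PLCD1 and 0.67 for PLD2.

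With LEUTX both genes were also higher than with the empty plasmid, by similar amounts. PLCD1 was 1.72-fold higher than in Control (95% interval 1.55 to 1.91; log2 fold change 0.78, edgeR quasi-likelihood adjusted p = 1.82e-07). PLD2 was 1.62-fold higher (1.35 to 1.94; log2 fold change 0.70, edgeR adjusted p = 0.000214). With LEUTX 12.8% of the genes tested were called higher with a fold over 1.5 and 22.1% without that threshold. A rise of this size ranked lower among the LEUTX responses, at 1491 for PLCD1 and 1739 for PLD2. Without sample b the log2 fold changes were 0.80 and 0.71. The comparisons of mutant ARGFX and of LEUTX used the same 4 Control samples as the contrast that picked the genes, so they are not independent of that choice. A Control level that was low by chance would favour both the choice and these rises. Their p-values can therefore be too small and are no independent evidence.

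Direct comparisons between constructs addressed whether the level differed from 1 protein to another. LEUTX against mutant ARGFX sets side by side none of the samples of the selecting contrast, which enter its fit through the shared estimate of spread. There PLCD1 differed by a fold of 1.07 (95% interval 0.954 to 1.199, edgeR quasi-likelihood adjusted p = 0.358) and PLD2 by 1.02 (0.840 to 1.24, edgeR adjusted p = 0.89), in a contrast where 37.5% of all genes tested were called in either direction. Neither difference passed the threshold, with or without WT ARGFX sample b, and the intervals leave room for a difference of up to 1.199-fold in PLCD1 and 1.24-fold in PLD2. The other comparisons between constructs reuse the WT ARGFX samples that picked the genes, so their values are a description, with no p. Between WT and mutant ARGFX the fold was 1.06 for PLCD1 (95% interval 0.947 to 1.19) and 1.12 for PLD2 (0.921 to 1.36), in a contrast where 2.09% of genes were called. Between LEUTX and WT ARGFX it was 1.01 for PLCD1 (0.906 to 1.12) and 0.912 for PLD2 (0.762 to 1.09), where 38.6% were called. Without WT ARGFX sample b the log2 difference of PLD2 was 0.23 for WT over mutant ARGFX and -0.19 for LEUTX over WT ARGFX. In order of mean level PLCD1 ran from LEUTX through WT ARGFX and mutant ARGFX to Control and PLD2 from WT ARGFX through LEUTX and mutant ARGFX to Control, and in both genes the ranges of neighbours overlapped at every step but that from mutant ARGFX to Control. Mean ARGFX CPM also differed, at 3455 ± 703 with WT ARGFX (SD, n = 4) and 5408.5 ± 1744 with mutant ARGFX (SD, n = 3), with ranges that overlapped. CPM are not corrected for length and the mutant insert is the shorter, so these values do not compare numbers of RNA molecules. The part of construct RNA in the comparison was not tested.

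**Figure D2:**
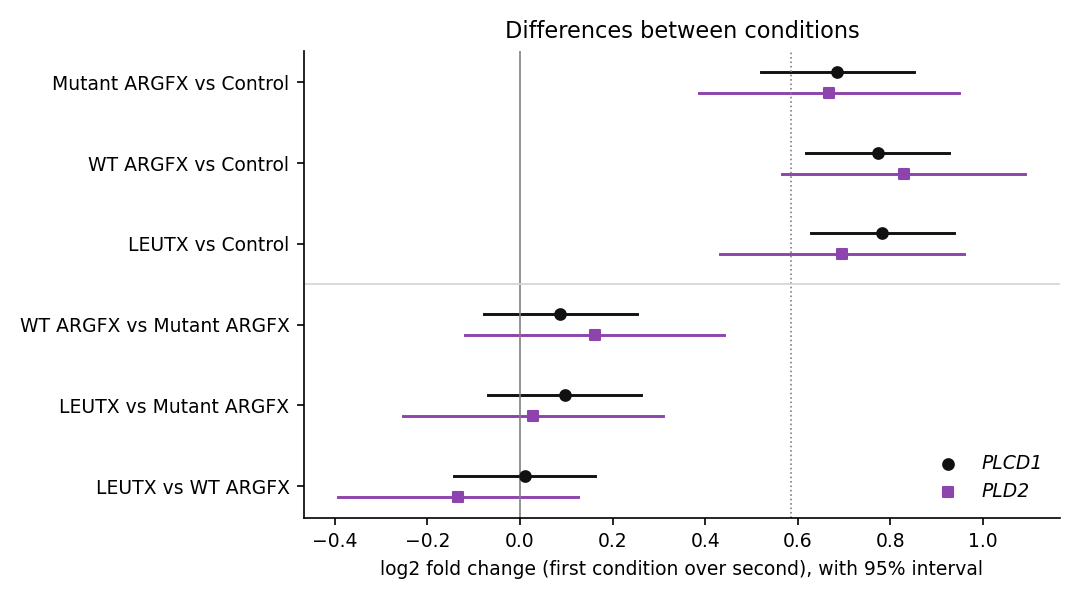
Log2 fold change (x axis) of PLCD1 (circles) and PLD2 (squares) for each pair of conditions, with 95% intervals from edgeR; the grey line marks no change and the dotted line a fold of 1.5. The 3 comparisons with Control lie at 0.67 to 0.83 and the 3 between constructs at -0.13 to 0.16. Intervals of the comparisons that hold WT ARGFX are a description, since those samples picked the genes.

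The balance between both transcripts is only described, since no test of it could have passed the threshold. The ratio of the PLCD1 count to the PLD2 count within a sample does not depend on library size, and its log2 value was 1.04 ± 0.10 in Control, 1.07 ± 0.10 with mutant ARGFX, 1.00 ± 0.20 with WT ARGFX and 1.15 ± 0.20 with LEUTX (SD, n = 4, 3, 4 and 4). All 4 ranges overlapped, from 0.72 in WT ARGFX replicate 1 to 1.38 in LEUTX replicate 4. The largest difference between conditions was 0.15, LEUTX over WT ARGFX. It was 0.056 without WT ARGFX replicate 1, 0.069 without LEUTX replicate 4 and 0.22 without WT ARGFX sample b. Without sample b the ratio of WT ARGFX minus Control was -0.12 in place of -0.047. In an exact two-sided permutation test the smallest p that the design allows is 0.0286 for 4 against 4 samples and 0.0571 for 3 against 4. After adjustment over 6 pairs no ratio difference could have passed 0.05, so no p is given.

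**Figure D3:**
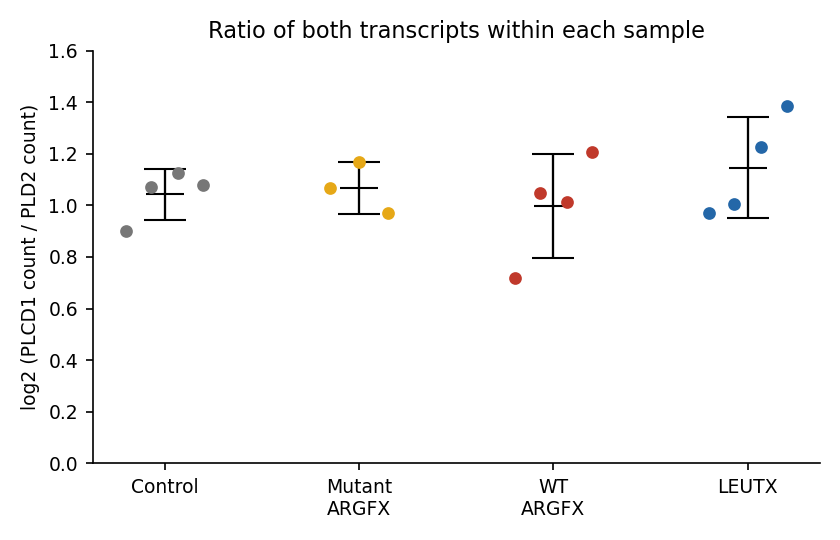
Log2 ratio of the PLCD1 count to the PLD2 count in each sample (points), with the condition mean and SD (black bars, n = 4, 3, 4 and 4). The ratio is not corrected for gene length, so only its differences between conditions can be read, and the means lie between 1.00 and 1.15.

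Within conditions, PLD2 moved with the main unexplained axis among the samples. With condition means removed, its log2 CPM fell as the surrogate score rose (Pearson r = -0.738 with a permutation p = 0.00103 and an adjusted p = 0.00309; Spearman rho = -0.729 with a permutation p = 0.0022 and an adjusted p = 0.0066; n = 15 samples permuted within conditions, Benjamini-Hochberg over 3 relations). Without the 2 samples farthest out on that axis r was -0.736. For PLCD1 the relation did not pass the threshold (r = -0.607, permutation p = 0.0637, adjusted 0.0955; rho = -0.596, permutation p = 0.0564, adjusted 0.0846; r = -0.721 without the same 2 samples). The deviations of PLCD1 and PLD2 from their condition means were not clearly related to each other either (r = 0.481, permutation p = 0.104, adjusted 0.104; rho = 0.421, permutation p = 0.112, adjusted 0.112; r = 0.582 without the 2 samples farthest out in PLCD1). The score was estimated from the same libraries, these genes included, to follow variation that many genes share. How many of the genes tested relate to it as strongly was not computed, so the relation cannot be called particular to PLD2. Without the 2 samples farthest out on that axis, PLCD1 and PLD2 had nearly the same r. With the score as a covariate, the log2 fold changes of PLD2 over Control were 0.61 for mutant ARGFX and 0.69 for LEUTX, and the standard error for LEUTX went from 0.125 to 0.088.

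**Figure D4:**
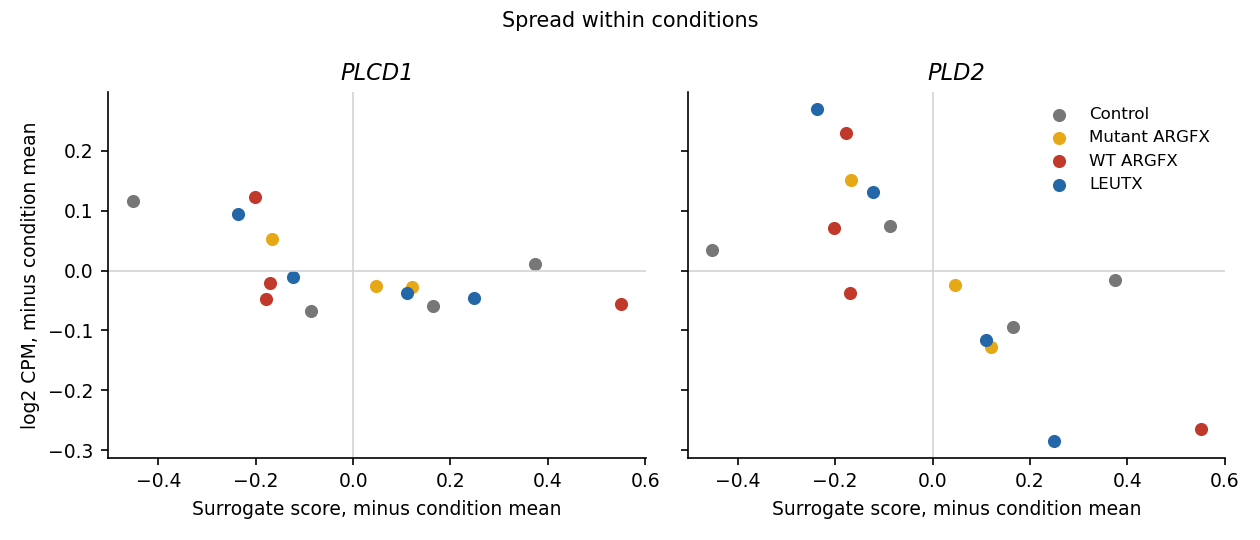
Deviation of PLCD1 (left) and PLD2 (right) from the condition mean, in log2 CPM (y axis), against the deviation of the surrogate score (x axis), 1 point per sample and coloured by condition. PLD2 runs from 0.27 in LEUTX replicate 1 to -0.28 in LEUTX replicate 4, and PLCD1 stays between -0.07 and 0.12.

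The enzymes around these phospholipases could be followed only in part. Of 109 other genes of phosphoinositide, diacylglycerol and phosphatidic acid metabolism on the list, 7 could be located, all through the study's list of genes raised by WT ARGFX, so their direction with WT ARGFX was fixed by that list. With mutant ARGFX 6 of the 7 were called higher and none lower (edgeR, adjusted p under 0.05), beside 4.26% of all genes tested called higher, with a median log2 fold change of 0.52 against 0.01 over all genes tested. With LEUTX 6 of the 7 were again called higher and none lower, beside 22.1% of all genes tested, with a median of 0.74 against -0.03. Without WT ARGFX sample b these counts were again 6 of 7 with each. These comparisons share their Control samples with the one that picked the genes. The 7 were located only because WT ARGFX raised them over those samples, so their excess over all genes is no result about phospholipid genes. The gene without a call was PLPP7 for mutant ARGFX and INPP5B for LEUTX.

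Among the phosphatases located, FIG4, which removes a phosphate from endosomal phosphoinositides, lay closest to the phospholipases in fold change over Control. Its log2 fold changes were 0.72 for mutant ARGFX, 0.88 for WT ARGFX and 0.89 for LEUTX. INPP5B, which dephosphorylates phosphatidylinositol bisphosphate and inositol phosphates, parted from the phospholipases. It was 9.91 ± 1.46 CPM in Control, 15.9 ± 1.93 with mutant ARGFX, 16.8 ± 1.39 with WT ARGFX and 10.6 ± 0.64 with LEUTX (SD, n = 4, 3, 4 and 4). It was lower with LEUTX than with mutant ARGFX by a log2 fold change of -0.60 (edgeR quasi-likelihood adjusted p = 0.000801), and its difference between LEUTX and Control was 0.09 (edgeR adjusted p = 0.552). PLPP7, of the lipid phosphate phosphatase family, was expressed at 2.33 ± 0.84 CPM in Control (SD, n = 4) and 3.15 ± 0.08 CPM with mutant ARGFX (SD, n = 3), a log2 fold change of 0.43 that did not pass the threshold (edgeR adjusted p = 0.279).

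Downstream of phospholipase C, PRKCD, the diacylglycerol-activated protein kinase C delta, had log2 fold changes of 0.52 for both mutant ARGFX and LEUTX and 0.80 for WT ARGFX. Among proteins that carry lipids across membrane contact sites, ESYT1, an extended synaptotagmin that tethers the endoplasmic reticulum to the plasma membrane, went from 134 ± 18.5 CPM in Control to 205 ± 8.38 with mutant ARGFX, 246 ± 6.31 with WT ARGFX and 571 ± 35.5 with LEUTX (SD, n = 4, 3, 4 and 4). Its level with LEUTX was 2.79-fold that with mutant ARGFX (edgeR quasi-likelihood adjusted p = 7.48e-09). ESYT2, its close relative, had log2 fold changes of 0.51 for mutant ARGFX, 0.77 for WT ARGFX and 0.32 for LEUTX, and 0.86 for WT ARGFX without sample b. OSBPL6, an oxysterol-binding protein relative, was 1.35-fold higher with LEUTX than with mutant ARGFX (edgeR adjusted p = 0.000817). The counts of ESYT1 and ESYT2 were whole in every sample. Of the 9 genes, PLCD1, PLD2, FIG4, PLPP7, PRKCD and ESYT2 gave no call between LEUTX and mutant ARGFX, and INPP5B, ESYT1 and OSBPL6 did, beside 37.5% of all genes tested, so their share is near that of all genes. Without WT ARGFX sample b, which enters this fit through the scaling and the shared estimate of spread, ESYT2 was also called, at a log2 fold change of -0.18 (edgeR adjusted p = 0.0437).

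**Figure D5:**
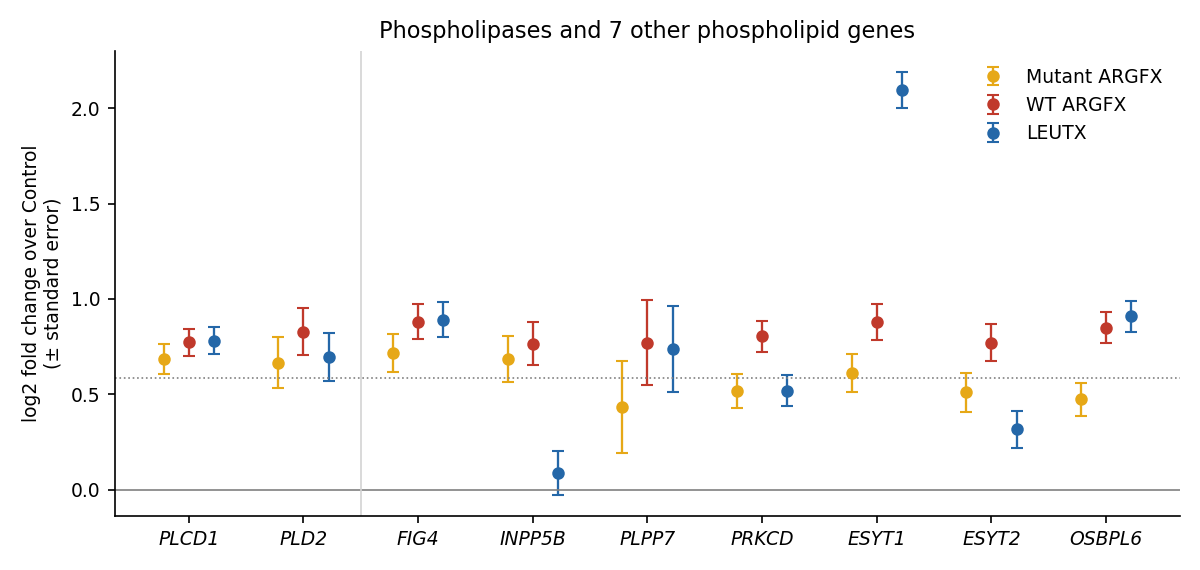
Log2 fold change over Control (points, with standard errors) for mutant ARGFX, WT ARGFX and LEUTX, for PLCD1 and PLD2 (left of the vertical line) and the 7 other phospholipid genes that could be located; the dotted line marks a fold of 1.5. ESYT1 reaches 2.09 and INPP5B 0.09 with LEUTX, while both phospholipases lie between 0.67 and 0.83 with all 3 constructs.

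Among genes with a symbol, the profile over the 15 samples nearest to that of PLCD1 was FAM214B (Pearson r of log2 CPM 0.96, rank 1 of the 14263 other genes tested). Next came FIG4 (r = 0.94, rank 4), HERC3, a ubiquitin ligase family member (r = 0.94, rank 5), TPCN1, a cation channel of endosomes and lysosomes (r = 0.94, rank 8), and PRKACA, a catalytic subunit of protein kinase A (r = 0.93, rank 11). The gene with a symbol nearest to PLD2 was PXDN, a peroxidase of the extracellular matrix (r = 0.96, rank 1), followed by TRIOBP, an actin-binding protein (r = 0.94, rank 9), SEC24D, a coat subunit of vesicles leaving the endoplasmic reticulum (r = 0.94, rank 10), PHLDB1 (r = 0.93, rank 12) and FAM114A1 (r = 0.93, rank 13). PLCD1 and PLD2 had r = 0.91 with each other, which put PLD2 at rank 31 for PLCD1 and PLCD1 at rank 33 for PLD2. Both were picked for a rise with WT ARGFX, which by itself favours a high r. By Spearman correlation the ranks were 390 and 337. These correlations describe samples that fall into 4 conditions and share their libraries, and symbols were known almost only for genes raised by WT ARGFX. With condition means removed, PLCD1 and PLD2 had r = 0.48 with each other (PLD2 at rank 2159 for PLCD1, PLCD1 at rank 3485 for PLD2). PXDN then kept r = 0.87 with PLD2 (rank 23), while FAM214B had r = 0.18 with PLCD1 (rank 5385). FIG4 then had r = -0.15 with PLCD1 (rank 8207), so its likeness to PLCD1 lay between conditions only.

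The summed level of the 6 located fibroblast markers also moved with the conditions, from 28274 to 34908 CPM in Control, 39929 to 46431 with mutant ARGFX, 50378 to 61987 with WT ARGFX and 33438 to 51744 with LEUTX. COL1A1 and COL1A2 made up most of that sum, and the markers did not move as 1 group. With LEUTX, COL1A2 and FN1 were higher than in Control, COL3A1, POSTN and FBN1 were lower and COL1A1 gave no call, with log2 fold changes from -0.67 for POSTN to 1.56 for FN1 (edgeR, adjusted p under 0.05 for a call). With mutant ARGFX, COL1A2, COL3A1 and FBN1 were called higher and the other 3 gave no call. Their part in the rise of PLCD1 and PLD2 was not tested. In bulk RNA a change in the share of cells and a change in RNA per cell cannot be told apart.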

How the data were processed

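Per the labels and the study's methods, the authors trimmed the reads and pseudoaligned them with kallisto 0.46.1 to cattle transcripts (ARS-UCD1.2), to which they had added ETCHbox sequences, and tximport made gene totals. The values that the authors deposited are expected counts that were not normalized, for 15 samples and 21665 genes (93.1% whole).

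The expected counts were rounded and tested with edgeR 4.0.16 in R 4.3.3 (filter on low counts, TMM, quasi-likelihood test) in 1 fit to all 15 samples. Benjamini-Hochberg adjustment ran over the 14264 genes tested in each contrast, and both phospholipases passed the filter. A call is an adjusted p under 0.05. The study's minimum on mean TPM was not applied. CPM are on the TMM scale, and log2 CPM for correlations used a prior count of 2. Each standard error is the log2 fold change over the square root of its F, and 95% intervals use the t distribution. The procedure was tested on simulated data. Permutation tests of the ratios were run with scipy 1.17.1, and their p-values are not given because none could have passed after adjustment.

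Members and lists were chosen with earlier results of these data known. The text names PLCD1, PLD2, the transfected genes, each located gene of the phospholipid list, and for each phospholipase the 5 genes with a symbol most correlated with it. Identifiers were matched to symbols through the study's list of genes raised by WT ARGFX. Of that list 232 rows were read, fewer than the paper reports as raised, and 220 of them gave a symbol. The RefSeq table matched 0 identifiers. Promoter motifs were not analysed here. The alternatives tried were no filter, DESeq2 1.42.0, its size factors within edgeR, the compared groups alone, a replicate block, a surrogate variable (sva 3.50.0) and each sample left out. For the other phospholipid genes only WT ARGFX sample b was left out, an alternative chosen after seeing the data. No pair of samples within a condition agreed within sampling noise.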

Additional observations from a re-analysis of the deposited data

Results flagged for a closer look

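Of 35 sets of 4 samples checked for a sample far from the rest, 4 held one, where chance gives about 1.75. None was a level of PLCD1 or PLD2 or their ratio. ARGFX was 4506 CPM in WT ARGFX replicate 1 against 3039.5 to 3176 in the other WT ARGFX samples. That replicate had the highest PLD2 of its condition, 33.5 CPM, but a PLCD1 of 55.2 CPM, below the condition mean of 57.1. The other constructs ran the opposite way. Mutant replicate 3 had the lowest ARGFX of its condition, 3408 CPM, and the highest PLD2, 28.5 CPM. LEUTX replicate 1 had the lowest LEUTX, 1314 CPM, and the highest PLD2, 31.4 CPM. A relation to the amount of construct RNA was not tested. The surrogate score was 0.56 in WT ARGFX sample b against -0.19 to -0.16 in the others. The same sample had an ESYT2 level of 98.4 CPM against 133 to 137, and the lowest PLD2 of its condition, 23.8 CPM. PLPP7 was 1.08 CPM in Control replicate 2, on 30 counts, against 2.64 to 2.92 in the other Control samples.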

How the results depend on the processing

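The rises of PLCD1 and PLD2 over Control with mutant ARGFX and with LEUTX kept their direction and an adjusted p under 0.05 in all 22 alternatives each, with log2 fold changes of 0.65 to 0.73 and 0.58 to 0.74 for mutant ARGFX and 0.76 to 0.82 and 0.62 to 0.79 for LEUTX. All of these alternatives rest on Control samples of the contrast that picked the genes, so they do not remove that dependence. The differences between LEUTX and mutant ARGFX passed the threshold in no alternative (lowest adjusted p = 0.132). Some differences between constructs changed sign around 0. For PLCD1 between LEUTX and WT ARGFX the log2 difference was -0.014 with a replicate block and -0.0082 without it over the same 13 numbered samples, and -0.0057 to 0.053 with samples left out in turn, and for PLD2 between LEUTX and mutant ARGFX it was -0.047 to 0.13. The log2 ratio of PLCD1 to PLD2 with samples left out was -0.026 to 0.074 for mutant ARGFX minus Control, -0.12 to 0.046 for WT ARGFX minus Control, -0.14 to 0.022 for WT minus mutant ARGFX and -0.0016 to 0.14 for LEUTX minus mutant ARGFX. For LEUTX minus WT ARGFX it was 0.056 to 0.219. For the genes around them, leaving out WT ARGFX sample b was chosen after seeing the data, and PLPP7 between LEUTX and WT ARGFX then went from -0.032 to 0.048. The cause was not tested.

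Samples with equal replicate numbers did not deviate together on average (mean correlation 0.01 over 16 pairs, from -0.298 to 0.375, over 0.1 in 6). Pairs with unequal numbers were not computed beside them, so a pairing of some samples cannot be judged. The replicate block changed no call of either phospholipase. The number of genes called between WT and mutant ARGFX, 298, was 505 with DESeq2, 177 with the replicate block (206 without it on the same samples), 911 with the surrogate variable and 196 without mutant replicate 1. Between mutant ARGFX and Control, 1461 became 3973 with the surrogate variable, 2230 without WT ARGFX sample b, 918 without Control replicate 4, and 666, 891 and 623 without mutant replicates 1, 2 and 3. Between WT ARGFX and Control, 4414 became 6890 with the surrogate variable. The percentages given as background move accordingly.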
